A study of Mus musculus with 8 samples.

Results

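The 10 genes described here, *Piwil1*, *Piwil2*, *Ddx4*, *Mael*, *Tdrd1*, *Tdrd6*, *Tdrkh*, *Asz1*, *Pld6* and *Mov10l1*, act in the piRNA pathway or build the nuage, and were taken by name from the 54532 genes of the table. Their RNA level was followed across the 8 libraries of the study. Each library was made from spermatocytes of C57BL/6J mice, either pachytene (P) or leptotene and zygotene (L/Z), collected on postnatal day (PD) 24 or, by the labels, PD 52, for which parts of the paper name a slightly later day. The MFN2 WT animals carried Mfn2 loxp/loxp without Cre by the labels, and the MFN2 cKO animals carried Mfn2 loxp/loxp with Stra8-Cre. By the methods, controls were littermates that could also be heterozygous for the floxed allele, and the Cre line is active in male germ cells from early spermatogonia on. Both genotypes thus share the floxed allele, and Mfn2 encodes mitofusin 2, which fuses outer mitochondrial membranes. The cells were separated by sedimentation and identified by size and appearance, so each library may hold other testis cells. Stage, genotype and age combine to 8 groups with 1 library each, and no group has a replicate.

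piRNAs are short RNAs of the germ line that guide PIWI proteins to transposon and other transcripts. Long precursor RNAs are unwound and cut at the outer mitochondrial membrane, loaded onto PIWI proteins, trimmed and methylated, and much of this happens in nuage, the electron-dense material that sits between mitochondria (intermitochondrial cement) in spermatocytes and later forms the chromatoid body of round spermatids. Mouse testis makes pre-pachytene piRNAs before and around birth and a far larger population, the pachytene piRNAs, once spermatocytes reach the pachytene stage. Loss of most of these genes arrests spermatogenesis in the mouse.

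Reads assigned to genes numbered from 14340665 to 20379950 per library, with a median of 16285571. *Mfn2* had lower FPKM (fragments per kilobase of transcript, scaled to the depth of the library) in MFN2 cKO than in MFN2 WT in each of the 4 pairs of the same stage and age, with 51.3% (PD 24) and 80.5% (PD 52) of the MFN2 WT level in P spermatocytes and 41.8% and 49.1% in L/Z spermatocytes. This gene-level value also counts reads outside the deleted exon. The labelled stages were only partly borne out by their markers. Of 8 measured leptotene and zygotene markers 4 had a higher mean in L/Z and 4 in P, and of 9 pachytene markers 4 were higher in P and 5 in L/Z. All 12 spermatid markers had a higher mean in L/Z than in P, and their summed FPKM ran from 256 to 5006 in P and from 550 to 20234 in L/Z, highest in the L/Z library of MFN2 cKO at PD 52. All 7 Leydig cell markers were higher in MFN2 cKO in every pair (summed FPKM 19.7 to 641 in P and 27.5 to 206 in L/Z). All 7 Sertoli cell markers had a higher mean in P (42.3 to 146 against 4.30 to 51.4). The 7 macrophage markers (6.11 to 43.1 against 38.9 to 261) and the 5 peritubular myoid cell markers (5.11 to 32.5 against 46.5 to 160) had higher means in L/Z, as had 8 of 10 spermatogonial markers (56.2 to 113 against 50.1 to 173). No marker was at 0 in any library.

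**Figure D1:**
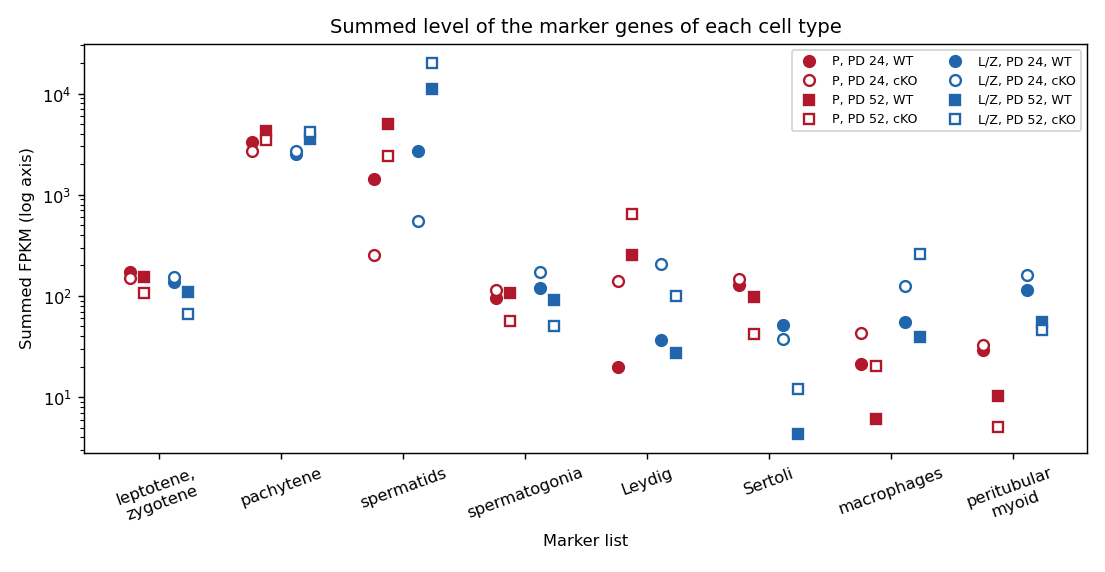
Summed FPKM (log axis) of the markers of each cell type in the 8 libraries, with P in red, L/Z in blue, PD 24 as circles, PD 52 as squares, MFN2 WT filled and MFN2 cKO open. Spermatid markers reached 20234 FPKM in the L/Z library of MFN2 cKO at PD 52, against 256 in the P library of MFN2 cKO at PD 24.

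All 10 genes were detected in every library, each above the 1 FPKM that a gene needed in at least 1 library to be tested, and their levels spanned a wide range. FPKM is per length, so levels can be set side by side between genes. *Mael*, whose nuage protein is needed to silence the LINE1 transposon, was the most abundant of them in every library and made up 38.2% to 62.8% of their summed FPKM. Together with *Ddx4*, which encodes the germ-cell RNA helicase VASA, and *Tdrd6*, whose multi-Tudor protein is a scaffold of the chromatoid body, it made up 64.1% to 94.9%. In P spermatocytes the mean FPKM (n = 4 libraries of different genotype and age) descended from *Mael* (622 ± 94.9 SD) through *Piwil1* (209 ± 51.4), *Ddx4* (191 ± 20.8), *Tdrd6* (183 ± 43.2), *Tdrd1* (66.1 ± 17.1), *Pld6* (58.8 ± 9.95), *Piwil2* (51.0 ± 8.76), *Mov10l1* (34.97 ± 8.09) and *Asz1* (12.4 ± 1.88) to *Tdrkh* (9.54 ± 1.71). Neighbours in this order had separate ranges only between *Mael* and *Piwil1*, between *Tdrd6* and *Tdrd1*, and between *Mov10l1* and *Asz1*. In L/Z spermatocytes *Mael* (664 ± 142), *Ddx4* (217 ± 24.2) and *Tdrd6* (171 ± 37.3) came first. *Piwil1* (24.7 ± 10.9), *Piwil2* (24.0 ± 7.99), *Mov10l1* (22.7 ± 8.80), *Tdrd1* (14.8 ± 3.77), *Pld6* (14.2 ± 2.41), *Asz1* (8.495 ± 2.17) and *Tdrkh* (6.05 ± 1.69) followed, and each of these overlapped the next one in range. The gaps lay between *Mael* and *Ddx4* and between *Tdrd6* and *Piwil1*.

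**Figure D2:**
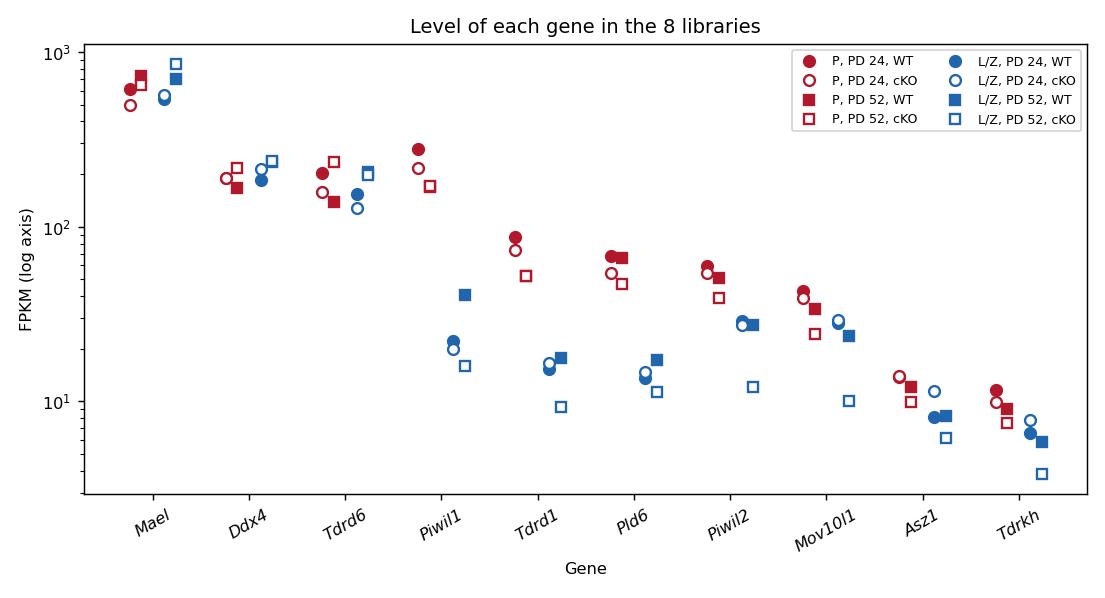
FPKM (log axis) of each of the 10 genes in the 8 libraries, with P in red, L/Z in blue, PD 24 as circles, PD 52 as squares, MFN2 WT filled and MFN2 cKO open. For *Piwil1*, *Tdrd1*, *Pld6* and *Piwil2* all P libraries lie above all L/Z libraries, while *Mael*, *Ddx4* and *Tdrd6* overlap between the stages.

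The comparison of stages asked which of these transcripts differ between P and L/Z spermatocytes. In a limma fit on log2(FPKM + 1) with each genotype and age as a block, 7 of the 10 genes were higher in P and none was lower, at a Benjamini-Hochberg adjusted p under 0.05. Over the 21175 genes tested, 12.4% were called higher in P and 16% lower. The median log2 difference was 0.64 for the 10 genes and -0.04 for all genes tested. In 4 of the 10 the lowest P library lay above the highest L/Z library, which was so for 10% of all genes tested, and the reverse for 5.63%. The blocks are separate cell preparations of different genotype and age, so the p-values measure how alike the stage difference was over these 4 blocks. Spermatid, macrophage and myoid cell markers were higher in L/Z and Sertoli cell markers higher in P, as given above, and their part in the stage differences was not tested. In bulk RNA, fewer cells of a type and less RNA per cell cannot be told apart.

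Among the PIWI proteins, *Piwil1* (ENSMUSG00000029423, chromosome 5, 128702524 to 128755474, plus strand, GRCm38) encodes MIWI, the slicer that binds pachytene piRNAs. Its FPKM in P spermatocytes was 278 (MFN2 WT) and 218 (MFN2 cKO) for PD 24, and 168 and 172 for PD 52. In L/Z spermatocytes the values in the same order were 22.2, 19.9, 40.5 and 15.98. The stages did not overlap, and within a block P was 4.15-fold to 12.5-fold above L/Z. The log2 difference of 3.09 (SE 0.27, limma adjusted p = 0.0021) exceeded that of 99.95% of the genes tested. *Piwil2* (ENSMUSG00000033644, chromosome 14, 70372477 to 70429383, minus strand) encodes MILI, which binds both pre-pachytene and pachytene piRNAs. It had 59.5, 54.5, 51.1 and 38.9 FPKM in P and 29.0, 27.4, 27.5 and 12.0 in L/Z, again listed as MFN2 WT then MFN2 cKO, first for PD 24 and then for PD 52. P was 1.86-fold to 3.23-fold higher within a block, and the log2 difference was 1.12 (SE 0.18, limma adjusted p = 0.0056). The ratio of *Piwil1* to *Piwil2* FPKM was 3.29 to 4.68 in P and 0.728 to 1.48 in L/Z, so *Piwil1* exceeded *Piwil2* in every P library and was the lower of the pair in both L/Z libraries at PD 24.

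Of the Tudor domain proteins, which bind methylated arginines of PIWI proteins, *Tdrd1* was called between stages and *Tdrd6* was not. *Tdrd1* (ENSMUSG00000025081, chromosome 19, 56826209 to 56870012, plus strand) encodes a component of intermitochondrial cement that partners MILI. Its FPKM was 86.9, 73.3, 51.9 and 52.4 in P and 15.4, 16.6, 17.8 and 9.34 in L/Z, in the same order of libraries. P was 2.92-fold to 5.64-fold higher within a block, with a log2 difference of 2.09 (SE 0.19, limma adjusted p = 0.0022). *Tdrd6* (ENSMUSG00000040140, chromosome 17, 43615335 to 43630299, minus strand) had 202, 157, 139 and 235 FPKM in P and 154, 127, 206 and 198 in L/Z. Its stages overlapped, and its log2 difference of 0.09 (95% interval -0.38 to 0.57, limma adjusted p = 0.746) was not called. The *Tdrd6* to *Tdrd1* ratio of FPKM ran from 2.14 to 4.48 in P and from 7.64 to 21.2 in L/Z.

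Proteins of the mitochondrial surface are the products of *Pld6*, *Asz1* and *Tdrkh*. *Pld6* (ENSMUSG00000043648, chromosome 11, 59783897 to 59787645, minus strand) encodes MitoPLD, or Zucchini, the outer membrane protein that generates piRNA 5′ ends and is needed for nuage. It had 68.0, 54.0, 66.2 and 47.2 FPKM in P and 13.6, 14.8, 17.1 and 11.4 in L/Z. All P libraries lay above all L/Z libraries, by 3.65-fold to 4.996-fold within a block, and the log2 difference was 1.97 (SE 0.15, limma adjusted p = 0.0016). *Asz1* (ENSMUSG00000010796, chromosome 6, 18050964 to 18109061, minus strand) encodes GASZ, which tethers nuage proteins to mitochondria. Its FPKM was 13.8, 13.9, 12.2 and 9.89 in P and 8.16, 11.4, 8.19 and 6.19 in L/Z, so the stages overlapped although P was higher in each block, by 1.21-fold to 1.69-fold. *Tdrkh* (ENSMUSG00000041912, chromosome 3, 94413273 to 94434668, plus strand), which encodes the mitochondrial Tudor protein that recruits MIWI for trimming, had 11.6, 9.98, 8.99 and 7.57 FPKM in P and 6.63, 7.87, 5.85 and 3.84 in L/Z. It was higher in P by 1.27-fold to 1.97-fold within a block, again with overlap between stages. The log2 differences were 0.52 for *Asz1* (SE 0.15, limma adjusted p = 0.036) and 0.60 for *Tdrkh* (SE 0.15, limma adjusted p = 0.024). The share of *Pld6* in the summed FPKM of the 3 genes was 69.4% to 75.8% in P and 43.4% to 55.0% in L/Z. *Tdrkh* levels are uncertain, because 2255 bases of the gene overlap the spermatid gene *Oaz3* on the opposite strand (4.68 to 211 FPKM) and the sources do not state whether counting used strand. Of the 50-base windows of *Tdrkh* transcripts 34.7% also occur in transcripts of other genes.

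Of the RNA helicases, *Mov10l1* was called between stages and *Ddx4* was not. *Mov10l1* (ENSMUSG00000015365, chromosome 15, 88982909 to 89055152, plus strand) encodes the helicase that binds piRNA precursors. It had 42.8, 39.3, 33.6 and 24.2 FPKM in P and 28.1, 29.1, 23.6 and 9.99 in L/Z. P was higher in each block, by 1.35-fold to 2.43-fold, with a log2 difference of 0.67 (SE 0.18, limma adjusted p = 0.030), although the ranges of the stages overlapped. *Ddx4* (ENSMUSG00000021758, chromosome 13, 112598333 to 112652475, minus strand) had 189.8, 188.9, 167 and 218 FPKM in P and 184, 215, 235 and 236 in L/Z, which overlap. Its log2 difference was -0.19 (95% interval -0.57 to 0.20, limma adjusted p = 0.416). *Mael* (ENSMUSG00000040629, chromosome 1, 166201201 to 166238747, minus strand) had 609.8, 499.7, 728 and 649 FPKM in P and 535, 571, 702 and 848 in L/Z, and its log2 difference was -0.08 (95% interval -0.49 to 0.32, limma adjusted p = 0.731). The 3 most abundant transcripts in L/Z, *Mael*, *Ddx4* and *Tdrd6*, were thus the ones not called between the stages.

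**Figure D3:**
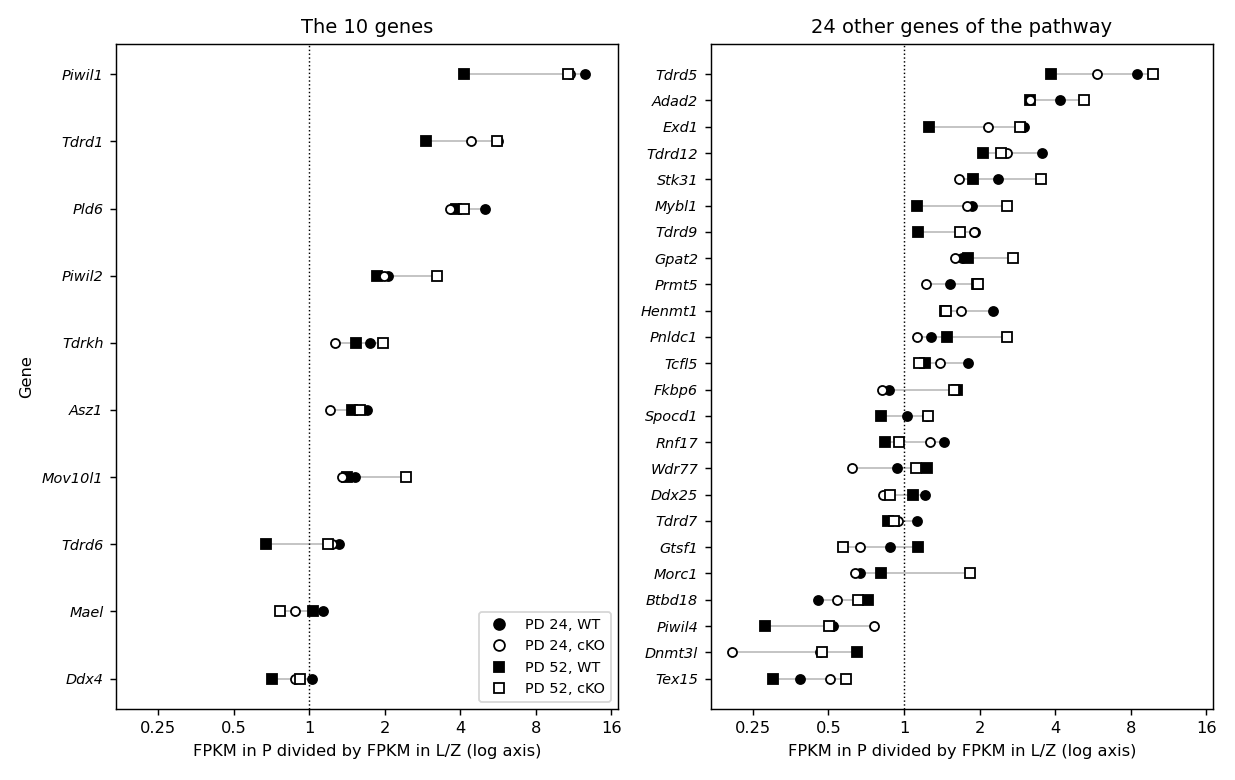
FPKM in P divided by FPKM in L/Z (log axis) within each genotype and age, for the 10 genes and for 24 other genes of the pathway, with PD 24 as circles, PD 52 as squares, MFN2 WT filled and MFN2 cKO open, and a grey line joining the lowest and highest ratio. *Piwil1* spans 4.15 to 12.5 and *Pld6* 3.65 to 4.996, while *Ddx4*, *Mael* and *Tdrd6* lie on both sides of 1.

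The calls for *Piwil1*, *Tdrd1* and *Pld6* held in each of the 12 alternative fits, with log2 differences of 2.69 to 3.49, 1.93 to 2.29 and 1.88 to 2.05. *Piwil2* was called in 11 of the 12 (limma adjusted p = 0.054 with the PD 52 libraries only). *Tdrkh*, *Mov10l1* and *Asz1* were called in 7, 6 and 5 of the 12, always with P higher. All of these last 3 lost the call when the MFN2 WT libraries at PD 24 or the MFN2 cKO libraries at PD 52 were left out, which left 4 of the 10 genes called, and *Asz1* also when those of MFN2 WT at PD 52 were (limma adjusted p = 0.0502). With the PD 24 libraries only, 4 of the 10 genes were called, and with the PD 52 libraries only 3. Each of these fits holds a single age and so fewer libraries, which lowers its power. The fit of the PD 52 libraries also called fewer of all genes, as given below. At PD 24 summed spermatid markers were still higher in L/Z than in P, at 2676 and 1439 in MFN2 WT and 550 and 256 in MFN2 cKO.

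*Piwil1*, *Tdrd1* and *Pld6* had the closest profiles. Over the 8 libraries, which share the stage contrast, Pearson's r of log2(FPKM + 1) was 0.984 between *Piwil1* and *Tdrd1*, 0.983 between *Piwil1* and *Pld6*, and 0.975 between *Tdrd1* and *Pld6*. *Tdrkh* and *Asz1* had r = 0.970, and the lowest value was -0.72 between *Mov10l1* and *Mael*. The sequence before the start site is shown for the 3 genes of closest profile and, beside them, for *Ddx4*, which did not differ between stages in the test. Each is the 250 bases before a RefSeq start site, from 5′ to 3′ on the strand of the gene, in GRCm38.p6. Capitals mark CACGTG, the palindromic E-box, and in *Piwil1* also CAGTTG, the reverse complement of CAACTG, the core recognised by MYB proteins.
Piwil1, chr5:128735996-128736245, plus strand: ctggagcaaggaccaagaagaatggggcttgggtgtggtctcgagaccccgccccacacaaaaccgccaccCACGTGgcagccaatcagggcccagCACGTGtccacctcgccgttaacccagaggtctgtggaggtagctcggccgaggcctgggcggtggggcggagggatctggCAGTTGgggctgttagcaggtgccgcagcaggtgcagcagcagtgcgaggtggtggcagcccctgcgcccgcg
Tdrd1, chr19:56825959-56826208, plus strand: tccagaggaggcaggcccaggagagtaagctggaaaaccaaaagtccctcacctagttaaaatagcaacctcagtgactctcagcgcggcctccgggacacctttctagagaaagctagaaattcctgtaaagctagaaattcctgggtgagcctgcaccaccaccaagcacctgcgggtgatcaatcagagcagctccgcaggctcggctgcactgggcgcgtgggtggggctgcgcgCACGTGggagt
Pld6, chr11:59787658-59787907, minus strand: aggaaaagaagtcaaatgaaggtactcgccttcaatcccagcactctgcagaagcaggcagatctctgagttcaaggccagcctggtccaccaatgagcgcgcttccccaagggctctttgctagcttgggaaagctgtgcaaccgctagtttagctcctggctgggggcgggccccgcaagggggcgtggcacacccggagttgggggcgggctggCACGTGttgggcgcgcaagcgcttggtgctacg
Ddx4, chr13:112652311-112652560, minus strand: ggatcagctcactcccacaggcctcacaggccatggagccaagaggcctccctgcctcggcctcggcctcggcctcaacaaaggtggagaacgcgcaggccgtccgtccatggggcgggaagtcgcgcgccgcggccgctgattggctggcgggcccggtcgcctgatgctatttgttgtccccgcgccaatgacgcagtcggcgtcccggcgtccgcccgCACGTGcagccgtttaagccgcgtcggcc

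Windows running from 250 bases before to 50 bases after the start were matched for 8 of the 10 genes, all but *Piwil2* and *Tdrd6*, and both strands were searched. CACGTG occurred in 6 of the 8 windows. Its first base lay 179 and 154 bases before the start in *Piwil1*, 11 in *Tdrd1*, 33 in *Pld6*, 29 in *Ddx4*, 223 in *Mael* and 246 in *Mov10l1*, and the windows of *Tdrkh* and *Asz1* did not hold it. Of all 32851 windows 7.15% held CACGTG, as did 9.43% of the 12681 tested genes with a window, 10.1% of those called higher in P and 6.05% of those called lower. This motif was searched after the windows had been read. CAACTG occurred in 1 of the 8 windows, that of *Piwil1* (73 bases before the start), and in 13.7% of all windows. AACNGTT, another MYB motif that can overlap CAACTG, occurred in none of the 8 and in 4.45% of all windows. The RefSeq start of *Piwil1* lies 33722 bases inside the gene as the table bounds it, and that of *Ddx4* 165 bases inside.

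The comparison of ages asked how the same cells differ between PD 24 and PD 52. *Mael* was the only one of the 10 genes called, with a higher level at PD 52 in all 4 pairs of the same genotype and stage, by 1.19-fold to 1.49-fold, and 24.8% of all genes tested were likewise higher in all 4. Its log2 difference was 0.40 (SE 0.10, limma adjusted p = 0.039), and 11.9% of all genes tested were called higher at PD 52 and 5.41% lower. The call held in 2 of 10 alternative fits (adjusted p = 0.027 to 0.187) and was lost when the MFN2 WT L/Z, MFN2 cKO L/Z or MFN2 cKO P libraries were left out. With FPKM rescaled to equal total reads on genes, the median difference of all genes moved from 0.00 to -0.15, that of *Mael* was 0.20 (limma adjusted p = 0.141), and 53.4% of all calls were higher at PD 52 in place of 68.8%. *Piwil2*, *Mov10l1* and *Tdrkh* had lower FPKM at PD 52 in all 4 pairs, as had 21.4% of all genes tested. Their PD 52 to PD 24 ratios were 0.439 to 0.948, 0.344 to 0.841 and 0.489 to 0.883, each lowest in the MFN2 cKO L/Z libraries. None of the 3 was called (limma adjusted p = 0.143, 0.086 and 0.117, with log2 differences of -0.47, -0.68 and -0.43). Summed spermatid and pachytene markers were higher at PD 52 than at PD 24 in all 4 pairs. Summed leptotene and zygotene, Sertoli cell and peritubular myoid cell markers were lower in all 4. The part of these markers in the values was not tested.

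The comparison of genotypes asked whether loss of mitofusin 2 changes the transcripts of a pathway whose assembly point is the mitochondrial surface. In the limma fit over the 4 pairs of the same stage and age, none of the 10 genes was called. Among them none had an unadjusted p under 0.05, and none was called by limma voom on the reads recovered from the FPKM values. Over all genes tested 0.132% were called higher in MFN2 cKO and 0.00472% lower, with 1467 at an unadjusted p under 0.05. The smallest adjusted p among the 10 was 0.764, for *Piwil2*. The log2 differences, MFN2 cKO minus MFN2 WT, were -0.44 for *Piwil1* (95% interval -1.02 to 0.13) and -0.43 for *Piwil2* (-0.94 to 0.08). They were -0.42 for *Mov10l1* (-0.96 to 0.12) and -0.31 for *Pld6* (-0.72 to 0.10). The other 6 lay between -0.25 (*Tdrd1*) and 0.15 (*Ddx4*). In each of 10 alternative fits of the same libraries these 4, *Tdrd1* and *Tdrkh* were negative and *Ddx4* was positive, all uncalled. The share of all genes with a constant sign was not computed. The median of the 10 was -0.21, and that of all genes tested was -0.04.

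Within each pair the change has no replicate check, a 2-fold change was counted on the log2(FPKM + 1) scale, and the intervals given are exact 95% intervals of the MFN2 cKO to MFN2 WT ratio for counting error only. At PD 24 no gene of the 10 changed 2-fold in either stage. In P spermatocytes at PD 24 the ratios ran from 0.779 (*Tdrd6*) to 1.01 (*Asz1*), and 8 of the 10 intervals lay below 1 and none above. Such intervals were not computed for all genes, so their counts in each pair have no share beside them. Of the 10 ratios 9 were below 1, and 62.1% of all genes were lower in this pair. The median log2 change of the 10 was -0.22, against -0.10 for all genes. Of all genes 1.79% were at least 2-fold higher and 6.29% lower. With FPKM rescaled to equal total reads the median of all genes in this pair moved to 0.06 and that of the 10 to -0.06, with 5 intervals below 1 and 2 above. Relative to the median of all genes the 10 lay at -0.13 as deposited and at -0.11 after rescaling. In the same pair none of the 12 spermatid markers was higher in MFN2 cKO (summed FPKM 1439 and 256), and all 7 Leydig cell markers were (19.7 and 139). Of 9 pachytene markers 1 was higher (3349 and 2681), and of 8 leptotene and zygotene markers 0 (173 and 151). All 7 macrophage markers (21.4 and 43.1), 9 of 10 spermatogonial markers (95.7 and 113) and 5 of 7 Sertoli cell markers (127 and 146) were higher. In L/Z spermatocytes at PD 24 the ratios ran from 0.827 (*Tdrd6*) to 1.402 (*Asz1*, interval 1.24 to 1.59), and 3 intervals lay below 1 and 5 above. Of the 10 ratios 3 were below 1, and 43.0% of all genes were lower. The median log2 change of the 10 was 0.10, near the 0.08 of all genes. Of all genes 3.45% were at least 2-fold higher and 7.03% lower. Here too none of the 12 spermatid markers was higher in MFN2 cKO (2676 and 550), while all 7 Leydig cell markers (36.4 and 206) and all 10 spermatogonial markers (119 and 173) were. Pachytene markers were higher in 8 of 9 (2499 and 2691), and leptotene and zygotene markers in 5 of 8 (137 and 153). Macrophage markers were higher in 6 of 7 (54.6 and 125) and Sertoli cell markers in 1 of 7 (51.4 and 37.7). The part of these markers in the values at PD 24 was not tested.

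At PD 52 in P spermatocytes, 6 intervals lay below 1 and 2 above. Of the 10 ratios 6 were below 1, and 54.4% of all genes were lower. The median log2 change of the 10 was -0.19, against -0.05 for all genes. *Pld6* was at 0.713 of MFN2 WT (0.663 to 0.767), *Mov10l1* at 0.722 (0.676 to 0.771) and *Piwil2* at 0.762 (0.727 to 0.799). *Tdrd6* was at 1.69 (1.65 to 1.72) and *Ddx4* at 1.303 (1.27 to 1.34), while *Piwil1* was at 1.02 (0.995 to 1.05). None of the 10 changed 2-fold, and of all genes 5.21% were at least 2-fold higher and 5.78% lower. Summed Leydig cell markers were 255 FPKM in MFN2 WT and 641 in MFN2 cKO in this pair, with all 7 higher in MFN2 cKO. Summed spermatid markers were 5006 and 2413 (2 of 12 higher in MFN2 cKO), Sertoli cell markers 98.0 and 42.3 (0 of 7) and spermatogonial markers 107 and 56.2 (5 of 10). Pachytene markers were 4223 and 3483 (4 of 9), leptotene and zygotene markers 155 and 107 (0 of 8), and macrophage markers 6.11 and 20.5 (6 of 7). The part of these markers in the values was not tested.

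In L/Z spermatocytes at PD 52, 3 of the 10 genes were at least 2-fold lower in MFN2 cKO, and no gene among them was higher, with 3.12% of all genes at least 2-fold lower and 4.83% higher. *Piwil1* was at 0.394 of MFN2 WT (0.366 to 0.424, from 2645 and 1018 reads). *Mov10l1* was at 0.423 (0.384 to 0.465) and *Piwil2* at 0.438 (0.405 to 0.473). *Tdrd1* lay at 0.524 (0.479 to 0.573), just inside the 2-fold limit, followed by *Tdrkh* at 0.657, *Pld6* at 0.663 and *Asz1* at 0.755, each with an interval below 1. The 3 most abundant transcripts lay nearer to or above 1, as *Tdrd6* was at 0.958 (0.940 to 0.977), *Ddx4* at 1.01 (0.980 to 1.03) and *Mael* at 1.21 (1.19 to 1.23). The median log2 change of the 10 was -0.53, against 0.02 for all genes, and with rescaled totals it was -0.61 against -0.06. In the same pair all 12 spermatid markers were higher in MFN2 cKO (summed FPKM 11095 and 20234) and all 7 macrophage markers too (38.9 and 261). So were all 7 Sertoli cell markers (4.30 and 12.0) and all 7 Leydig cell markers (27.5 and 99.0). Spermatogonial markers summed to 90.1 and 50.1 (4 of 10 higher) and peritubular myoid cell markers to 55.3 and 46.5 (1 of 5). The summed leptotene and zygotene markers were 109 and 66.4 FPKM (0 of 8 higher in MFN2 cKO), and the pachytene markers 3544 and 4176 (8 of 9). The part of these in the lower values was not tested, and a single library stands for each group.

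**Figure D4:**
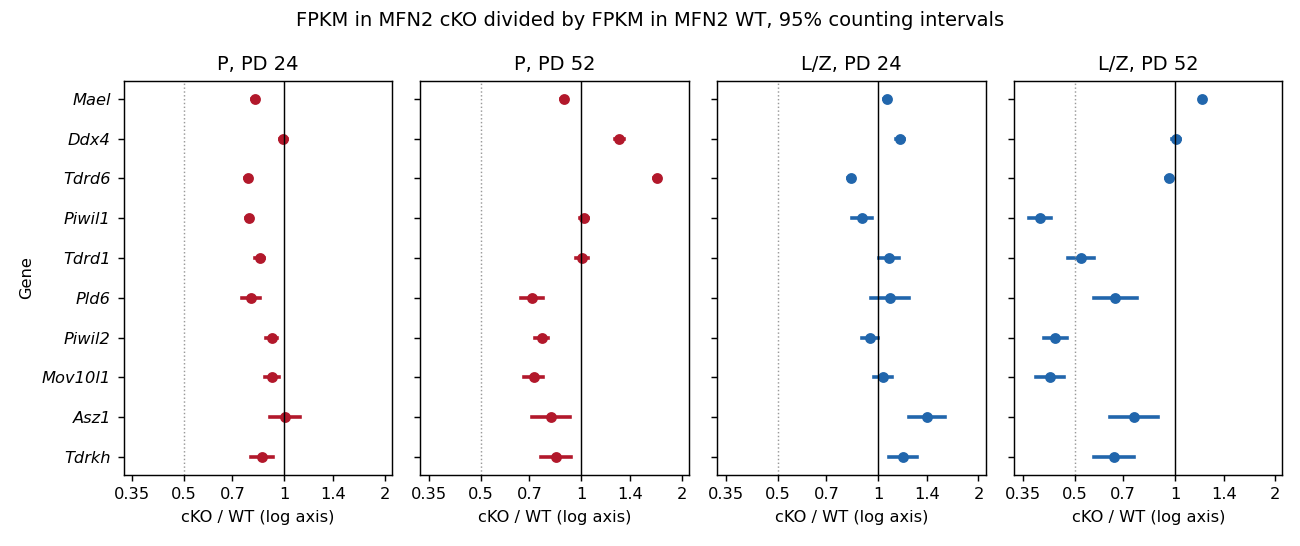
FPKM in MFN2 cKO divided by FPKM in MFN2 WT (log axis) for the 10 genes in each stage and age, as points with exact 95% counting intervals, with a solid line at 1 and a dotted line at 0.5. *Piwil1*, *Piwil2* and *Mov10l1* lie below 0.5 in L/Z spermatocytes at PD 52, and no other point does.

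Whether the effect of genotype differs between ages or stages was tested with interaction terms in limma, which call none of the 10 genes. For genotype by age the smallest adjusted p was 0.573, for *Mov10l1* with a log2 difference between the effects of -0.77 (95% interval -1.61 to 0.06), and 0.00472% of all genes tested were called higher and 0% lower. For genotype by stage the smallest was 0.979, with 0% of all genes called in either direction and 854 at an unadjusted p under 0.05. None of the 10 had an unadjusted p under 0.05 in either test, and limma voom called none.

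Other genes of the pathway were followed as a list of 24, of which 23 had more than 1 FPKM in some library. The exception was *Piwil4*, which encodes MIWI2, the nuclear PIWI protein of fetal germ cells, at 0.13 to 0.96 FPKM. Between stages 10 of the 23 were higher in P and 3 lower in the limma fit, with a median log2 difference of 0.45, beside the 12.4% higher, 16% lower and median of -0.04 of all genes tested. The higher ones included Tudor and nuage proteins, led by *Tdrd5* (log2 difference 2.48, SE 0.21, adjusted p = 0.0020) and *Adad2* (1.85), with *Tdrd12* (1.299), *Stk31* (1.12), *Gpat2* (0.90) and *Tdrd9* (0.68). *Exd1* (0.94), *Henmt1* (0.70), the methyltransferase of piRNA 3′ ends, *Mybl1* (0.76), which encodes A-MYB, the transcription factor of pachytene piRNA precursors, and *Prmt5* (0.65), which methylates arginines of PIWI proteins, were also higher in P. The 3 that were lower in P were *Tex15* (-1.14) and *Dnmt3l* (-0.79), which act in nuclear silencing of transposons, and *Btbd18* (-0.55), a regulator of piRNA precursor transcription. Between ages *Gtsf1*, which encodes a partner of PIWI proteins, was higher at PD 52 (0.68, SE 0.13, limma adjusted p = 0.021), by 1.42-fold to 1.92-fold over the 4 pairs. No other gene of the list was called, while 11.9% of all genes tested were called higher and 5.41% lower. Of all genes tested 24.8% were higher in all 4 pairs. Between genotypes none of the 23 was called by limma, and 1 had an unadjusted p under 0.05, beside 1467 of all 21175 genes tested. In single pairs at PD 52, on the log2(FPKM + 1) scale, 2 of the 23 were at least 2-fold lower in MFN2 cKO in P and 4 in L/Z. Of all genes 5.78% and 3.12% were. *Fkbp6* and *Dnmt3l* were at least 2-fold lower in both stages. *Fkbp6*, whose protein acts in piRNA biogenesis, went from 44.1 to 19.1 FPKM in P and from 27.2 to 12.1 in L/Z. At PD 24 it was higher in MFN2 cKO, at 1.18 (1.08 to 1.28) in P and 1.25 (1.16 to 1.36) in L/Z. *Dnmt3l* had 5.30 and 1.11 FPKM in P and 8.14 and 2.36 in L/Z at PD 52. *Tdrd5* (6.58 and 2.67 FPKM) and *Adad2* (14.2 and 5.47) were at least 2-fold lower in L/Z at PD 52 only. That scale understates the change of low genes. By the ratio of FPKM alone *Btbd18* was also under 0.5 at PD 52, at 0.403 (0.286 to 0.559) in P and 0.439 (0.332 to 0.575) in L/Z, as were *Dnmt3l* in P at PD 24, at 0.334 (0.210 to 0.515), and *Pnldc1*, which encodes the piRNA trimmer, in L/Z at PD 52, at 0.491 (0.372 to 0.643). *Morc1* was at 2.01 in L/Z at PD 24. The share of all genes beyond 2-fold by the ratio alone was not computed.

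The protein-coding genes with the profile most like that of *Piwil1*, *Piwil2* and *Pld6* were found by Pearson's r of log2(FPKM + 1) over the 8 libraries, among 5058 genes with a mean above 10 FPKM. For *Piwil1* these were *Mgll* (r = 0.996), *Trim11* (0.993) and *Ccar2* (0.993), and for *Pld6* they were *Cers3* (0.995), *Swi5* (0.995) and *Mgll* (0.993). For *Piwil2* they were *Gpat2* (0.986), itself in the pathway list, *Taf2* (0.986) and *Pigs* (0.985). These values are descriptions, since the 8 libraries differ in stage, age and content of other cells.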

How the data were processed

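RNA of P and L/Z spermatocytes was sequenced by the study as paired-end libraries, and the authors deposited FPKM per gene for 8 libraries with gene lengths and coordinates. The deposited FPKM multiplied by gene length gave whole reads for 100% of nonzero values (within 0.01 of a whole number), and median-of-ratios factors were equal in all 8 libraries (1.02), so the values already carried that scaling. The submitters' processing notes name CASAVA 1.4 and Bowtie 0.12.2, with builds that differ from the GRCm38 coordinates of the table, of which 98.1% of shared genes equal GENCODE release vM21. The paper's methods name DESeq2, which was not run here. Strandedness of counting is not given in the sources used here.

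Genes with FPKM above 1 in at least 1 library (21175) were tested on log2(FPKM + 1) with limma 3.58.1 in R 4.3.3, with a mean-variance trend, Benjamini-Hochberg adjustment and calls under 0.05. Pair, genotype by age, or genotype by stage entered as blocks for genotype, stage and age. A fold change on this scale understates changes of low genes. Pairs of single libraries were not tested. Read intervals are exact Clopper-Pearson 95% intervals and cover counting error only. On simulated data the genotype fit recovered 194 of 200 changed genes with 8 false calls among 19482 genes. The stage fit recovered 189 of 200 with 20 false calls, and the age fit 195 with 13. Genotype by age recovered 173 of 200 with 12 false calls, and genotype by stage 169 with 14. These counts hold only for the changes that were simulated. Recovery of smaller differences was not tested, so a gene left uncalled between genotypes may still differ.

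The 10 genes, the pathway list and the marker lists were chosen with earlier results of these data known. Genes named are the 10, *Mfn2*, pathway genes called in a fit or changed 2-fold the same way in 2 or more pairs, and the 3 genes of most similar profile. *Piwil4*, *Pnldc1*, *Morc1* and *Oaz3* were named after their values were seen. One leptotene and zygotene marker, *Meiosin*, was not found by name. Promoter sequences are from RefSeq.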

Additional observations from a re-analysis of the deposited data

How the results depend on the processing

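No group has a replicate, and the depth limits single pairs to counting error. The planned count tests were not run, since the deposited unit is FPKM, although whole reads could be recovered from it. Limma voom on those recovered reads, total-read scaling, and fits of the PD 24 or PD 52 libraries only were added after the data were seen. A further median-of-ratios scaling moved no count by over 1.5 times, but its factor was equal in all libraries, so it could change little. It is among the alternative fits counted above, where it adds no separate check. Counts of genes changed at least 2-fold (P PD 24, P PD 52, L/Z PD 24, L/Z PD 52) were 1354, 1917, 1852 and 1420. They were 2330, 3364, 3125 and 2683 with a pseudocount of 0.1, 647, 949, 901 and 542 with FPKM above 5, and 664, 791, 846 and 602 for protein-coding genes. The share lower in MFN2 cKO at P PD 52 was 52.6%, and 71.2% and 70.0% under the last 2. Genotype called 29 genes, and 7 with a pseudocount of 0.1, 0 without the filter (2099 at an unadjusted p under 0.05), 114 with voom, and 0 to 2 with a pair left out. Stage called 6013 genes, and 3010 without the filter, 1759 with the PD 52 libraries only and 2369 to 5953 with a block left out. Of the 10 genes stage called 7, and 4 without the filter, 4 with the PD 24 and 3 with the PD 52 libraries only, and 4 to 7 with a block left out. Age called 3669 genes, and 791 without the filter and 0 to 4905 with a block left out. Of the 10 it called 1, and 0 with a pseudocount of 0.1, total-read scaling, no filter or voom, and 0 to 2 with a block left out. Genotype by age called 1 gene, and 54 with a pseudocount of 0.1, 0 without the filter (2637 at an unadjusted p under 0.05) and 326 with voom. Differences that changed sign were uncalled in every setting of that comparison. Between stages they were *Tdrd6* (-0.0047 to 0.31 with a block left out, lowest without MFN2 WT at PD 24, and -0.16 with the PD 52 libraries only) and *Mael* (-0.17 to 0.017 with a block left out, highest without MFN2 cKO at PD 52). For genotype they were *Asz1* (-0.21 to 0.06), *Mael* (-0.12 to 0.07) and *Tdrd6* (-0.23 to 0.14), for age *Ddx4* (-0.08 to 0.23), *Piwil1* (-0.46 to 0.07) and *Pld6* (-0.26 to 0.03), for genotype by age *Ddx4* (-0.04 to 0.09) and for genotype by stage *Tdrkh* (-0.10 to 0.05). The cause of these changes was not tested. Of the 10 genes' stage values in alternative fits, 98 kept direction and side of the threshold, 19 kept direction only and 3 changed sign.

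Each group has a single library, so the blocks are pairings by stage, age and genotype, not by a replicate number. Without the replicate block, an additive fit called 3 genes for genotype in place of 29, and the stage calls of *Asz1* and *Mov10l1* (limma adjusted p = 0.058 for both) and the age call of *Mael* (0.090, which left 0 of the 10) were lost.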
